A study of Mus musculus with 2 samples.

Results

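Entpd1, Cd200, Mdfi, Fam150a, Htra1, Cerk and St8sia2 are 7 genes of mouse lung fibroblasts, out of 29004 features measured. They were chosen by their lower levels in alveolar myofibroblasts or matrix fibroblasts of pups in which Hedgehog ligands had been blocked, so their difference between the conditions in those cells is described here and not tested. Whole lungs were dissociated and measured cell by cell in droplets, an assay that counts unique molecular identifiers (UMIs), each standing for 1 captured transcript end. The pups received the Hedgehog-blocking antibody 5E1 or control IgG under the skin at postnatal day 3 and were taken at day 6. Pups of both groups carried Gli1CreERT2/+ and R26RtdT/+, a tamoxifen-inducible Cre at 1 Gli1 allele with a tdTomato reporter, and all were given tamoxifen at day 1. Each library came from the pooled lungs of 3 pups, with 1 library per condition, so neither condition has a replicate. Every interval below is a 95% interval that covers counting error only, and a difference between the libraries cannot be told apart from a difference between the pooled pups.

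Hedgehog ligands of the lung epithelium act on the neighbouring mesenchyme. They bind the receptor Ptch1, which frees Smoothened and lets Gli transcription factors switch on targets such as Gli1, Ptch1 and the decoy receptor Hhip. Alveolar myofibroblasts drive the outgrowth of septa that divide the early air sacs into alveoli, while matrix fibroblasts lie within the septa and support the epithelium. Of the genes described here, Entpd1 encodes CD39, an enzyme of the cell surface that breaks down extracellular ATP, and Cd200 a surface glycoprotein that restrains myeloid cells through its receptor. Fam150a, now named Alkal1, encodes a secreted ligand of the ALK and LTK receptors, and Htra1 a secreted serine protease that cleaves matrix proteins. Mdfi encodes an inhibitor of bHLH transcription factors of the MyoD family, Cerk the kinase that phosphorylates ceramide, and St8sia2 an enzyme that adds polysialic acid to NCAM.

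The 5E1 library held 9454 cells kept by the authors with 58890639 UMIs, and the IgG library 13509 cells with 77436890 UMIs. Median depths were 4636 and 4541 UMIs per cell in the 5E1 and IgG libraries, and 184 of the kept barcodes occurred in both. Of the 5E1 cells 24.2% had a UMI of Xist and none of a Y-linked gene and 32.7% had a Y-linked UMI, against 91.5% and 0.0296% of IgG cells, so the pooled pups differed in sex. Cells are grouped by the authors' 23 clusters, named here from marker genes. Alveolar myofibroblast-like cells join clusters 12, 21 and 23, of which cluster 12 is led by cell division genes. Matrix fibroblast-like cells join clusters 14, 19 and 20, of which cluster 14 has no marker of that list among its 10 leading genes, although 19 of 22 markers were at least 2-fold higher there than in the rest. Htra1 is itself a leading gene of cluster 12, and no source used here lists the genes behind the clustering. Levels are given in CPM, the gene's UMIs scaled to the sum of all UMIs of the class. The kit reads transcript ends, so gene length was not used. As a check of the labels, Ptch1 stood at 9.62 CPM in the 5E1 and 79.0 CPM in the IgG library in alveolar myofibroblast-like cells, and at 18.8 CPM and 101 CPM in matrix fibroblast-like cells of the 5E1 and IgG libraries.

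Sequence around the transcription starts was read from RefSeq promoter windows of 300 bases, with 250 before and 50 after each start, on the GRCm38.p6 build. They were searched on both strands for the Gli consensus TGGGTGGTC and its reverse complement GACCACCCA. The exact letters were in 0 of 8 windows of 6 of the genes, and in 0.253% of 32851 windows of all genes. With at most 1 mismatch they were in 2 of the 8, against 6.74% of all windows. Those of Cd200 and St8sia2 are shown because they hold the near matches, in capitals, and that of Cerk because its ratio was the lowest of the 7 in both fibroblast classes. They lie on the minus strand at chr16:45409004-45409303, chr7:74013633-74013932 and chr15:86186092-86186391, and are printed 5′ to 3′ along the gene. A match is a run of letters and not a binding site.
Cd200: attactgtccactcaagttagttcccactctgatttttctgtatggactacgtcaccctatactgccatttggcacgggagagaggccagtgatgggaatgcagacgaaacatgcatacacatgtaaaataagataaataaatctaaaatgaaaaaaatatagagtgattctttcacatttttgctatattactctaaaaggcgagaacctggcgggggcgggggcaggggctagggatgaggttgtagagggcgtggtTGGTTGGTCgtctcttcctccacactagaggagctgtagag
St8sia2: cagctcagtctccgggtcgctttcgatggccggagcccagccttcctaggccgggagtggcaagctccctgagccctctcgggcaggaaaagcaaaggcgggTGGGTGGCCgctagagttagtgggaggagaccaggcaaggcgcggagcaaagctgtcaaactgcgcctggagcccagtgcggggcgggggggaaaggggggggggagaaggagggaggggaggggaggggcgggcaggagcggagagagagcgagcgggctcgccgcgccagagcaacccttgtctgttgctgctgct
Cerk: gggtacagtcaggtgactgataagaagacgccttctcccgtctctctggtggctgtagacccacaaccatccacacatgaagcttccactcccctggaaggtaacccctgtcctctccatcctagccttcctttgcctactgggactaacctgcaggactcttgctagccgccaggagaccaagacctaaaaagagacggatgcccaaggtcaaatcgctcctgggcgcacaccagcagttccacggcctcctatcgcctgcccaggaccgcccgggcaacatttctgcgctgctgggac

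In alveolar myofibroblast-like cells all 7 genes were at least 2-fold lower in the 5E1 library, with a median log2 ratio of -1.66. Of the 12668 genes that had 20 UMIs or more over both libraries, 3.66% were that much lower in this class, and their median log2 ratio was -0.08. In matrix fibroblast-like cells 4 of the 6 genes with at least 20 UMIs were, against 4.53% of all genes, and the median log2 ratio was -1.11 for these genes and -0.04 for all. Those were Entpd1, Htra1, Cerk and St8sia2, while Mdfi fell just short of this fold, Cd200 was not lower and Fam150a had too few UMIs. Both counts rest on the contrast that picked the genes, and nothing is read from them.

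**Figure D1:**
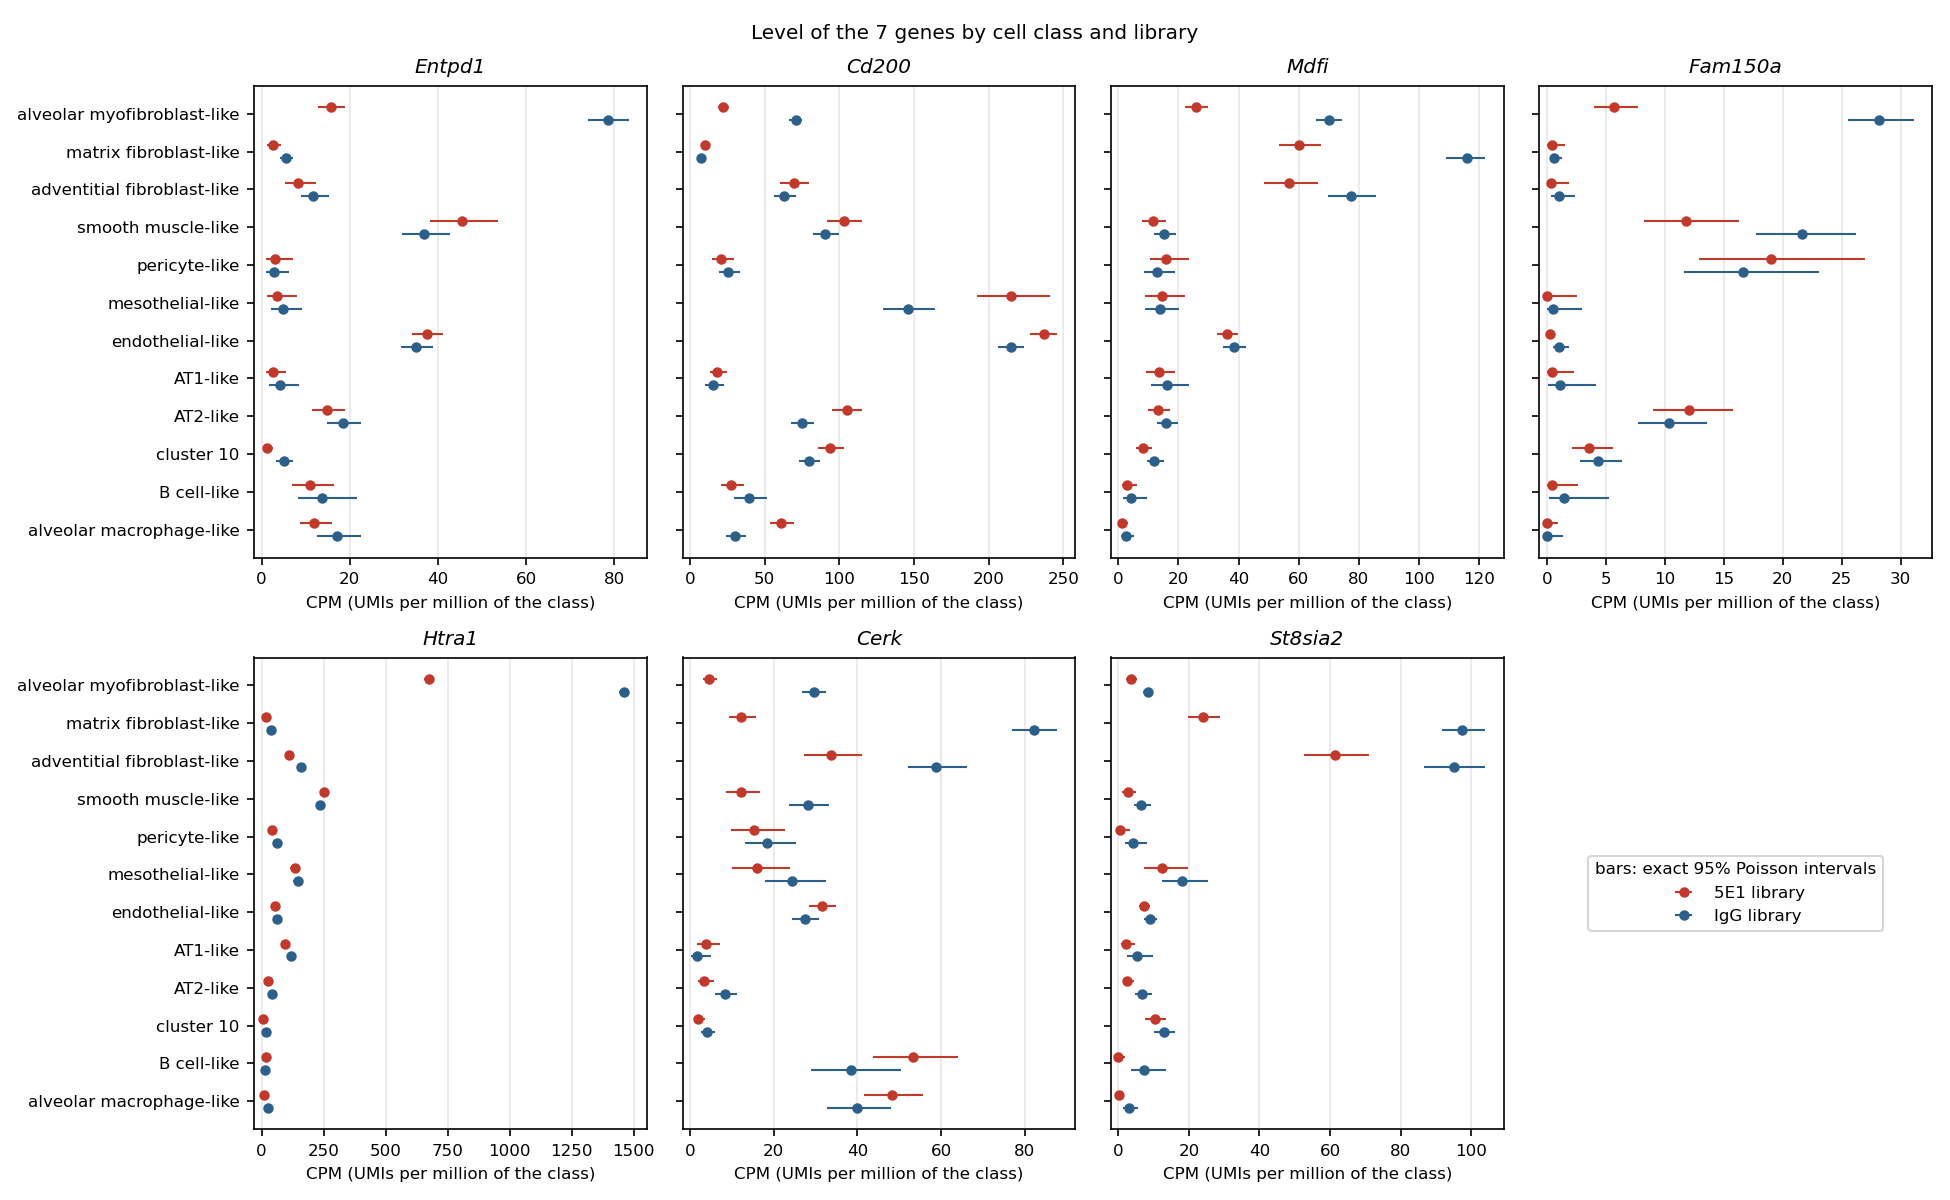
Level of each of the 7 genes (CPM, linear axis) in 12 cell classes, with the 5E1 library in red above the IgG library in blue and exact 95% Poisson intervals as bars. Entpd1 and Fam150a are separated between the libraries in alveolar myofibroblast-like cells and overlap in pericyte-like cells. Entpd1 also overlaps in endothelial-like cells, where Fam150a had 3 UMIs in 5E1 and 11 in IgG, a ratio of 0.242 (0.0433 to 0.915). Cerk and St8sia2 are separated in matrix fibroblast-like and adventitial fibroblast-like cells.

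Entpd1 (ENSMUSG00000048120, chromosome 19 from 40612366 to 40741602 on the plus strand of mm10) had 108 UMIs in 5E1 alveolar myofibroblast-like cells, or 15.7 CPM (12.9 to 19), against 1114 UMIs or 78.5 CPM (73.9 to 83.2) in the IgG library. It was 4.99-fold lower (4.09 to 6.13), and by close to the same factor in each cluster, with ratios of 0.205 in cluster 12, 0.209 in cluster 21 and 0.19 in cluster 23. After IgG these cells carried the highest Entpd1 level of any class, above interstitial macrophage-like cells at 53.4 CPM (43.7 to 64.7). After 5E1 they stood at about the level of AT2-like cells, at 14.8 CPM (11.4 to 18.9), with intervals that overlap. They supplied 9.58% of all Entpd1 UMIs in the 5E1 library and 48.7% in the IgG library. Endothelial cells and macrophages are known sites of CD39, and their levels overlapped between the libraries. Endothelial-like cells were at 37.5 CPM (34.1 to 41.2) in 5E1 and 35.0 CPM (31.5 to 38.8) in IgG, and interstitial macrophage-like cells at 62.0 CPM (49.9 to 76.1) in 5E1. In smooth muscle-like cluster 22 Entpd1 was higher in 5E1, at 46.3 CPM against 31.3 CPM in IgG, a ratio of 1.48 (1.13 to 1.94). Matrix fibroblast-like cells had 2.50 CPM in 5E1 and 5.48 CPM in IgG, so their 2.19-fold difference (1.17 to 4.47) rests on 12 UMIs in 5E1 and 60 in IgG. Both levels lie below the 11 CPM and 13.8 CPM of B cell-like cells in 5E1 and IgG, which may hold the transcript themselves.

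Cd200 (ENSMUSG00000022661, chromosome 16 from 45382135 to 45409053, minus strand) had 153 UMIs in 5E1 alveolar myofibroblast-like cells, or 22.3 CPM (18.9 to 26.1), against 1004 UMIs or 70.7 CPM (66.4 to 75.2) in IgG. The ratio was 0.396 (0.283 to 0.541) in cluster 12, 0.291 (0.197 to 0.416) in cluster 21 and 0.263 (0.201 to 0.342) in cluster 23, so the gene was lower within each. In matrix fibroblast-like cells it was a trace gene, at 10.2 CPM (7.56 to 13.5) in 5E1 and 7.49 CPM (5.96 to 9.30) in IgG. Within cluster 19 of that class it was higher in 5E1, at 13.8 CPM against 7.25 CPM in IgG, a ratio of 1.9 (1.22 to 2.91). Endothelial-like cells carried the most, at 237 CPM (228 to 246) in 5E1 and 215 CPM (206 to 224) in IgG. Mesothelial-like cells, the outer lining of the lung, had 215 CPM (192 to 241) in 5E1 and 146 CPM (129 to 164) in IgG. AT2-like cells, which make surfactant, had 105 CPM (95.1 to 115) and alveolar macrophage-like cells 61.0 CPM (53.4 to 69.4) in 5E1, against 75.1 CPM (67.7 to 83.1) and 30.1 CPM (24.0 to 37.3) in IgG. Its direction was therefore lower in myofibroblast-like cells and higher in several other classes and in matrix fibroblast-like cluster 19. The receptor gene Cd200r1 had 42.0 CPM in 5E1 and 42.8 CPM in IgG in alveolar macrophage-like cells, and none of the 4 listed receptor genes reached 20 UMIs in either fibroblast class.

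Fam150a (ENSMUSG00000087247, chromosome 1 from 6359218 to 6394731, plus strand) had 39 UMIs in 5E1 alveolar myofibroblast-like cells, or 5.68 CPM (4.04 to 7.77), against 400 UMIs or 28.2 CPM (25.5 to 31.1) in IgG, 4.96-fold lower (3.56 to 7.08). With each cell thinned to 1000 UMIs its log2 ratio was -0.90, against -2.29 without thinning. After IgG its highest cluster among mesenchymal cells was smooth muscle-like cluster 16, where it stood at 46.9 CPM in 5E1 and 49.3 CPM in IgG, a ratio of 0.952 (0.556 to 1.56). Pericyte-like cells had 19 CPM (12.9 to 27.0) in 5E1 and 16.6 CPM (11.6 to 23.1) in IgG, and AT2-like cells 12.1 CPM (9 to 15.8) in 5E1 and 10.4 CPM (7.75 to 13.6) in IgG. The intervals of these sources overlap between the libraries. Smooth muscle-like cells as a whole had 11.8 CPM in 5E1 and 21.6 CPM in IgG, a ratio of 0.543 (0.362 to 0.800), and cluster 16 made up 14.6% of them in 5E1 and 27.6% in IgG. Matrix fibroblast-like cells had 2 UMIs in 5E1 and 7 in IgG. Of its receptors, Alk had 0 UMIs in both fibroblast classes of both libraries.

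Htra1 (ENSMUSG00000006205, chromosome 7 from 130936111 to 130985660, plus strand) was by far the most abundant of the 7, with 4615 UMIs in 5E1 alveolar myofibroblast-like cells, or 673 CPM (653 to 692), against 20710 UMIs or 1458.9 CPM (1439.1 to 1478.9) in IgG. The difference, 2.17-fold, was the smallest of the 7 in these cells. It was also unequal within the class, with ratios of 0.425 (0.401 to 0.450) in cluster 12, 0.608 (0.565 to 0.654) in cluster 21 and 0.432 (0.412 to 0.454) in cluster 23. Without the dividing cluster 12 its log2 ratio was -0.84, under 2-fold, against -1.12 with it. These clusters made up 15.2%, 34.8% and 50.0% of the class in the 5E1 library, and 30.4%, 46.2% and 23.4% in the IgG library. After thinning to 1000 UMIs, 42.1% (39.1 to 45.0%) of myofibroblast-like cells of the 5E1 library and 59.2% (57.1 to 61.3%) of the IgG library had a UMI, and 82.4% and 88.6% of them without thinning. B cell-like cells, taken as a class without the transcript, gave 1.17% in 5E1 and 1.87% in IgG after thinning, and 3.52% and 4.21% without. Median depths were 5593 and 6084 UMIs in myofibroblast-like cells of the 5E1 and IgG libraries and 3325 and 2498.5 UMIs in B cell-like cells. Thinning left out 3 and 10 shallower myofibroblast-like cells of the 5E1 and IgG libraries, and 0 and 5 B cell-like cells. In matrix fibroblast-like cells Htra1 had 16.9 CPM in 5E1 and 37.4 CPM in IgG, a ratio of 0.452 (0.352 to 0.575). Its 5E1 interval there overlapped that of B cell-like cells, at 16.3 CPM. Its IgG interval lay above that of B cell-like cells, at 13.1 CPM, and overlapped that of monocyte-like cells, at 31.6 CPM. Monocyte-like cells had 7.81 CPM in 5E1. Clusters 19 and 20 made up 53.4% and 40.1% of matrix fibroblast-like cells in 5E1, and 80.4% and 8.5% in IgG. In cells with a UMI of Gli1, Ptch1 or Hhip, Htra1 had 42.7 CPM in 5E1 and 41.7 CPM in IgG in cluster 19. In cluster 20 such cells had 3.85 CPM, from 1 UMI, and 63.2 CPM. Cells without such a UMI had 17 CPM in 5E1 and 19.6 CPM in IgG in cluster 19, and 15.1 CPM and 59.3 CPM in cluster 20. How far a background level or the mix of clusters enters the matrix fibroblast-like difference was not tested. In smooth muscle-like cells Htra1 stood at 251 CPM (234 to 270) in 5E1 and 237 CPM (224 to 251) in IgG, with overlapping intervals. It was lower in 5E1 in other non-immune classes, with ratios of 0.685 in adventitial fibroblast-like, 0.672 in pericyte-like and 0.594 in AT2-like cells. The ratio was 0.802 in AT1-like cells, 0.881 in endothelial-like cells and 0.318 in cluster 10. Each of these intervals lay below 1, and in mesothelial-like cells the interval of Htra1 included 1. Its locus overlaps Fgfr2 on the other strand, and the sources used here do not state whether strand was used in counting. Fgfr2 had 3.50 CPM in 5E1 and 25.6 CPM in IgG in alveolar myofibroblast-like cells.

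Mdfi (ENSMUSG00000032717, chromosome 17 from 47815328 to 47834691, minus strand) was expressed in both fibroblast classes. Alveolar myofibroblast-like cells had 177 UMIs in 5E1, or 25.8 CPM (22.1 to 29.9), and 992 UMIs or 69.9 CPM (65.6 to 74.4) in IgG, 2.71-fold lower. Matrix fibroblast-like cells had 288 UMIs or 60.1 CPM (53.3 to 67.4) in 5E1 and 1267 UMIs or 116 CPM (109 to 122) in IgG, a ratio of 0.519 (0.455 to 0.590). The ratio was 0.198 (0.120 to 0.310) in the dividing cluster 12 and 0.547 (0.415 to 0.711) in cluster 21, whose intervals do not overlap. Adventitial fibroblast-like cells, which line vessels and airways, had 56.9 CPM (48.5 to 66.3) in 5E1 and 77.3 CPM (69.6 to 85.6) in IgG. Endothelial-like cells had 36.1 CPM (32.8 to 39.7) in 5E1 and 38.5 CPM (34.8 to 42.4) in IgG, with overlapping intervals. After 5E1, matrix and adventitial fibroblast-like cells thus carried Mdfi at levels whose intervals overlap, while after IgG they did not.

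Cerk (ENSMUSG00000035891, chromosome 15 from 86139128 to 86186141, minus strand) had the lowest ratio of the 7 in both fibroblast classes. Alveolar myofibroblast-like cells had 32 UMIs in 5E1, or 4.66 CPM (3.19 to 6.58), against 420 UMIs or 29.6 CPM (26.8 to 32.6) in IgG. Matrix fibroblast-like cells had 59 UMIs in 5E1, or 12.3 CPM (9.37 to 15.9), against 899 UMIs or 82.1 CPM (76.9 to 87.7) in IgG. The gene was 6.34-fold and 6.67-fold lower in these classes. Its ratios in the 5 fibroblast clusters other than cluster 14 lay between 0.126 and 0.176, and cluster 14, with 5 UMIs in 5E1, had 0.322 (0.101 to 0.792). The gene was not low throughout the lung. B cell-like cells had 53.2 CPM (43.8 to 64.1) in 5E1 and 38.6 CPM (28.9 to 50.5) in IgG, alveolar macrophage-like cells 48.3 CPM (41.6 to 55.8) and 39.9 CPM (32.8 to 48.0) in 5E1 and IgG, and endothelial-like cells 31.6 CPM (28.4 to 34.9) and 27.6 CPM (24.5 to 30.9). Matrix fibroblast-like cells held the highest level of any class after IgG and stood below these 3 classes after 5E1. Among other mesenchymal cells it was 2.33-fold lower in smooth muscle-like cells, with 12.1 CPM (8.51 to 16.7) in 5E1 and 28.2 CPM (23.7 to 33.3) in IgG, and lower in adventitial fibroblast-like cells, with 33.6 CPM (27.3 to 41.0) and 58.9 CPM (52.2 to 66.2). Cluster 16 made up 14.6% of the smooth muscle-like cells in 5E1 and 27.6% in IgG. In cells without a UMI of Gli1, Ptch1 or Hhip, Cerk had 12.8 CPM in 5E1 and 20 CPM in IgG in cluster 22. In cluster 16 such cells had 9.43 CPM, from 2 UMIs, and 59 CPM. Cells with such a UMI had 5.21 CPM, from 1 UMI, and 23.7 CPM in cluster 22. In cluster 16 they had 12.8 CPM, from 3 UMIs, and 41.8 CPM. The part of the cluster mix in the class value was not tested.

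St8sia2 (ENSMUSG00000025789, chromosome 7 from 73939119 to 74013690, minus strand) belonged to matrix and adventitial fibroblast-like cells. Matrix fibroblast-like cells had 115 UMIs in 5E1, or 24.0 CPM (19.8 to 28.8), against 1067 UMIs or 97.5 CPM (91.7 to 104) in IgG, 4.06-fold lower (3.35 to 4.97). The ratio was 0.264 in cluster 14, 0.279 in cluster 19 and 0.193 in cluster 20. After thinning to 1000 UMIs 2.45% (1.59 to 3.60%) of these cells had a UMI in 5E1 and 9.12% (7.97 to 10.4%) in IgG, and without thinning 9.30% and 34.0%, while B cell-like cells gave 0 in both libraries after thinning, which allows up to 0.704% in 5E1 and 0.800% in IgG. The matrix fibroblast-like cells had median depths of 4426 and 4483.5 UMIs in the 5E1 and IgG libraries, and 13 and 15 of them were left out as shallower. Adventitial fibroblast-like cells had 61.4 CPM (52.7 to 71.1) in 5E1 and 95 CPM (86.5 to 104) in IgG, so matrix and adventitial cells overlapped after IgG and did not after 5E1. In alveolar myofibroblast-like cells the gene was near background, at 3.50 CPM (2.24 to 5.20) in 5E1 and 8.31 CPM (6.88 to 9.95) in IgG, against 0 UMIs in 5E1 and 7.29 CPM (3.49 to 13.4) in IgG in B cell-like cells. Its difference in that class is therefore not separable from a background that itself was lower in the 5E1 library.

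**Figure D2:**
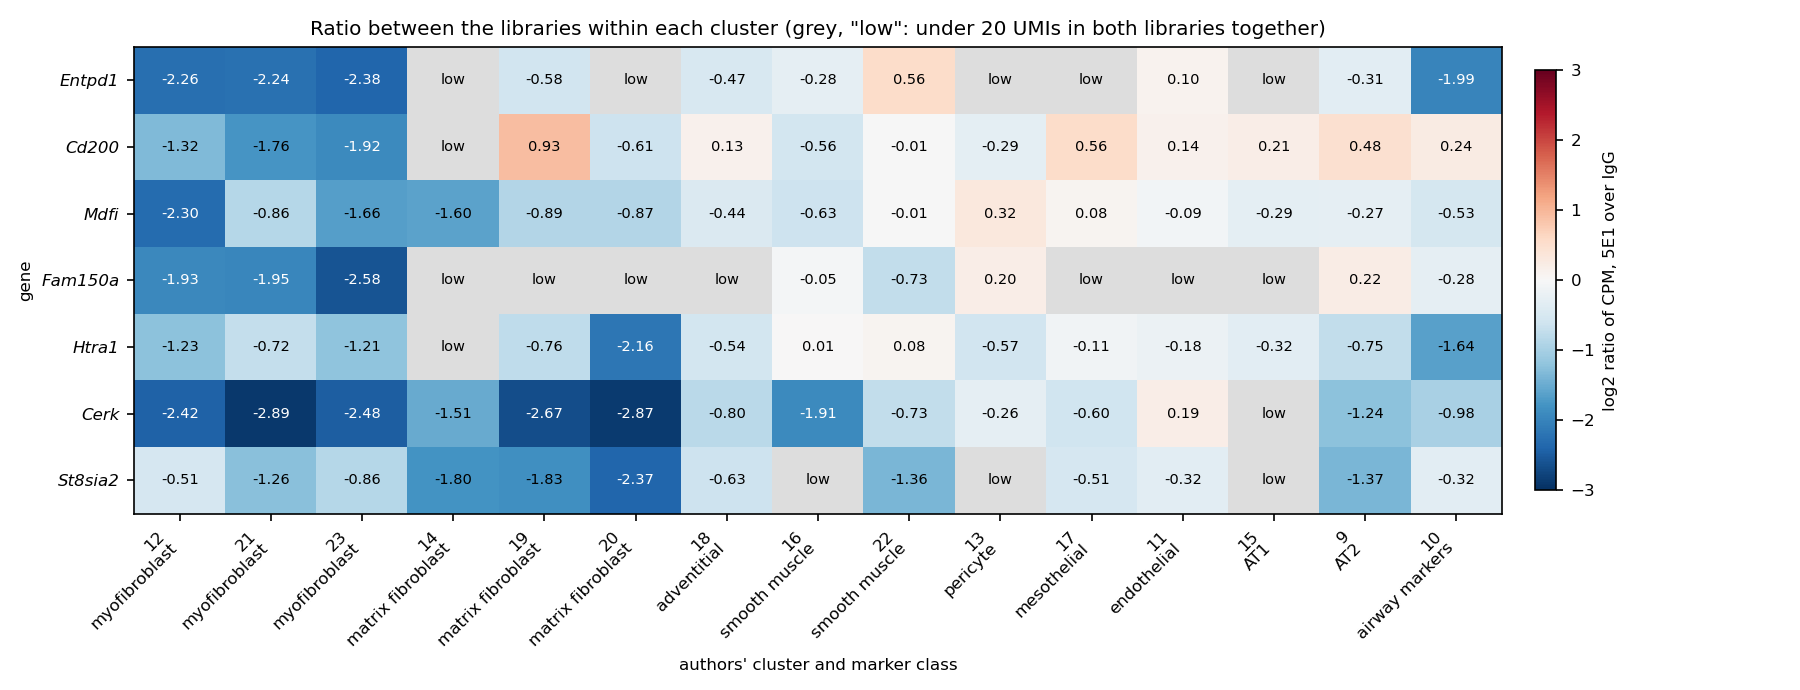
Log2 ratio of CPM, 5E1 over IgG, for each of the 7 genes (down) in 15 clusters of non-immune cells (across), blue for lower and red for higher in 5E1, with grey fields where both libraries together had under 20 UMIs. Entpd1, Fam150a and Cerk are at -1.93 or lower in clusters 12, 21 and 23, Cerk also in clusters 19 and 20, while Cd200 is above 0 in clusters 19, 18, 17, 11, 15, 9 and 10.

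Classes that the choice did not use show how far the pattern reached. None of 6 genes with at least 20 UMIs was at least 2-fold lower in adventitial fibroblast-like cells, where 2.08% of all genes were. Smaller differences were present there, with a median log2 ratio of -0.51 against -0.01 for all genes. The ratios of Mdfi (0.736), Htra1 (0.685), Cerk (0.571) and St8sia2 (0.646) had intervals below 1, while those of Entpd1 and Cd200 included 1. The count at least 2-fold lower was 0 of 5 in pericyte-like cells (2.46% of all genes), 0 of 5 in mesothelial-like cells (2.52%), 0 of 6 in endothelial-like cells (2.09%) and 0 of 3 in AT1-like cells (1.91%). In smooth muscle-like cells 2 of 7, Cerk and St8sia2, were that much lower, against 3.05% of all genes. The same 2 of 7 were in AT2-like cells, against 2.79%, and Entpd1 and Htra1, also 2 of 7, in cluster 10, which is led by club and ciliated cell genes, against 2.23%. In AT2-like cells St8sia2 stood at 2.55 CPM in 5E1 and 6.79 CPM in IgG and Cerk at 3.48 CPM and 8.39 CPM, and in cluster 10 Entpd1 at 1.19 CPM and 5.01 CPM, all low levels. St8sia2 was also low in smooth muscle-like cells, with 8 UMIs or 2.61 CPM in 5E1 and 32 UMIs or 6.53 CPM in IgG. Its IgG interval there (4.47 to 9.22) overlapped that of B cell-like cells, at 7.29 CPM (3.49 to 13.4). The Cerk value in smooth muscle-like cells joins clusters 16 and 22, whose shares differed between the libraries. No gene of the 7 was at least 2-fold higher in any of the 10 non-immune classes. In immune cells Htra1 had a median over 8 clusters of 8.04 CPM in 5E1, with a range of 2.57 to 17.9 CPM, and of 22.5 CPM in IgG, with a range of 13.1 to 31.6 CPM. St8sia2 had 1.01 CPM and 4 CPM there and Mdfi 1.52 CPM and 4.52 CPM, in 5E1 and IgG. The part of free RNA in these 3 low immune levels was not tested. Cerk, with 24.1 CPM in 5E1 and 26.4 CPM in IgG, and Entpd1, with 17.4 CPM and 21.2 CPM, had immune medians closer to each other between the libraries.

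Marker lists with at least 4 members changed 2-fold in 1 direction in the same classes are given here. Of all genes, 3.66% were that much lower and 2.08% higher in alveolar myofibroblast-like cells, and 4.53% and 2.72% in matrix fibroblast-like cells. The smooth muscle list shares Hhip, Acta2 and Tagln with the alveolar myofibroblast list. Hhip, a Hedgehog target, was itself 6.66-fold lower in alveolar myofibroblast-like and 19.7-fold lower in matrix fibroblast-like cells. In alveolar myofibroblast-like cells 6 of 11 smooth muscle markers were at least 2-fold lower and none higher, with a summed level of 6444.8 CPM in 5E1 and 11056.3 CPM in IgG. Of 15 AT2 markers 5 were lower and none higher, with sums of 473 CPM and 952 CPM, and of 13 neutrophil markers 8 were higher, with sums of 1391.3 CPM and 431 CPM. Of 11 dendritic cell markers 6 were lower, with sums of 158 CPM and 329 CPM, of 22 matrix fibroblast markers 5 were lower, with 999 CPM and 1358.5 CPM, and of 16 AT1 markers 5 were higher, with 384 CPM and 271 CPM. Of the 18 markers of the class itself 3 were lower and 3 higher, with 21047.7 CPM and 20179.5 CPM. In matrix fibroblast-like cells 9 of 10 cell division genes were lower, with sums of 511 CPM in 5E1 and 1265.5 CPM in IgG, and 4 of 11 smooth muscle markers were lower, with 1518.9 CPM and 1841.8 CPM. There 4 of 4 measured mast cell or basophil markers were higher, with sums of 36.7 CPM and 7.95 CPM, as were 4 of the 22 markers of the class itself, with 28168.3 CPM and 23252.1 CPM. Of 18 alveolar myofibroblast markers 2 were lower and 3 higher in matrix fibroblast-like cells, with sums of 6883.0 CPM and 3880.6 CPM. Cluster 20 made up 40.1% of this class in 5E1 and 8.50% in IgG. No gene of these lists was at 0 in both libraries. Their part in the differences was not tested.

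The sex of the cells was used for a comparison within the 5E1 library. In alveolar myofibroblast-like cells Entpd1 stood at 17.6 CPM (11.7 to 25.4) in the 220 5E1 cells with Xist and no Y-linked UMI and at 15.7 CPM (11.5 to 20.9) in the 438 with a Y-linked UMI. Cd200 had 27.6 CPM (20.1 to 37.0) and 23.8 CPM (18.6 to 30.1), and Htra1 673 CPM (633 to 715) and 659 CPM (630 to 689). In matrix fibroblast-like cells Cerk had 12 CPM (7.51 to 18.1) and 14.5 CPM (9.17 to 21.7), and St8sia2 22.3 CPM (16 to 30.3) and 18.2 CPM (12.2 to 26.2). The intervals of both kinds of cell overlap for each of these pairs. Htra1 in matrix fibroblast-like cells had 14.2 CPM (9.25 to 20.7) in Xist cells and 25.1 CPM (18 to 34.2) in Y-linked cells, which overlap narrowly. In adventitial fibroblast-like cells Htra1 stood at 76.5 CPM (60.9 to 94.8) in Xist cells and 136 CPM (115 to 161) in Y-linked cells, which do not overlap, against 160 CPM in all IgG cells. Such cells come from different pups of the pool, so sex and pup cannot be told apart. Since the genes were chosen on 5E1 against IgG, their position below the IgG level in the fibroblast classes is a description.

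**Figure D3:**
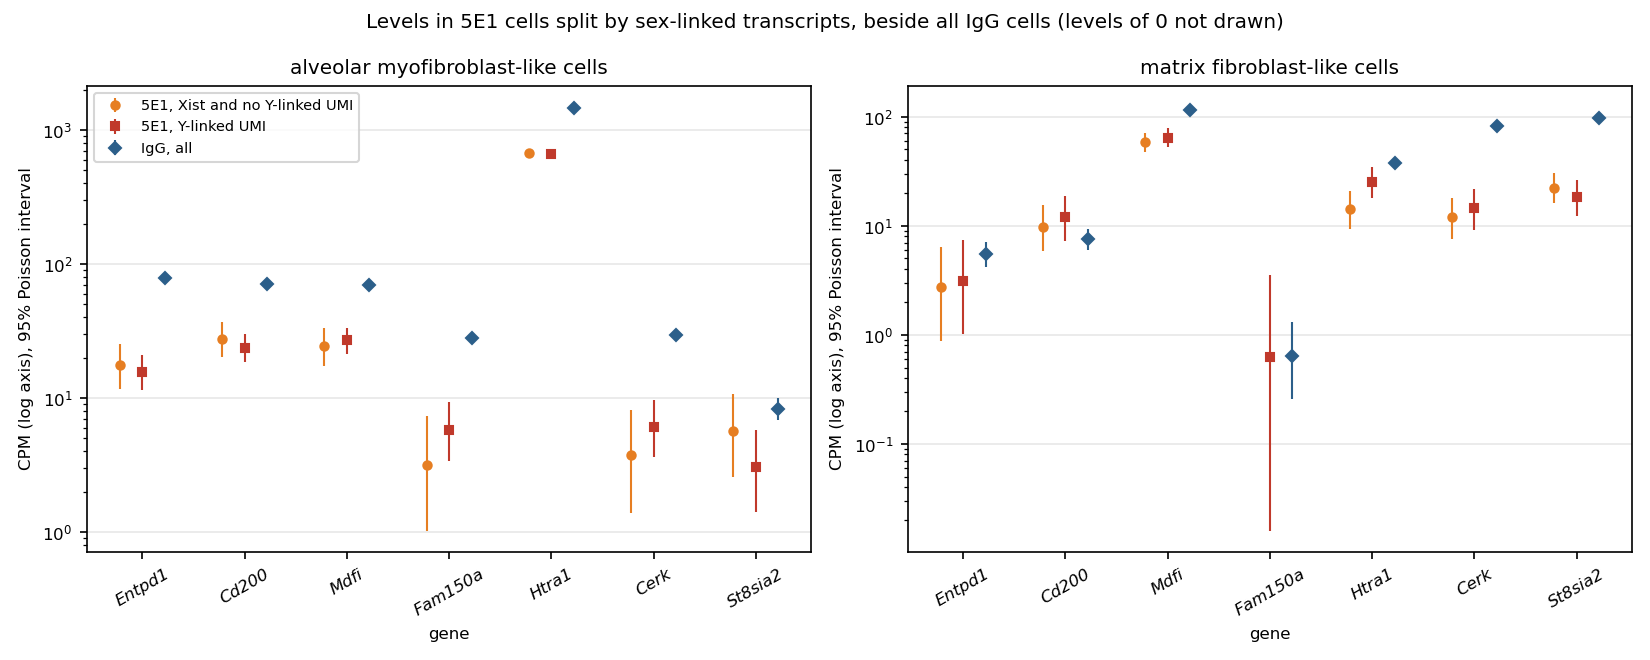
Level of each gene (CPM, log axis, exact 95% Poisson intervals) in 5E1 cells with Xist and no Y-linked UMI (orange), in 5E1 cells with a Y-linked UMI (red) and in all IgG cells (blue), in alveolar myofibroblast-like (left) and matrix fibroblast-like cells (right). The orange and red intervals overlap for each gene, with Htra1 in matrix fibroblast-like cells at 14.2 CPM (orange) and 25.1 CPM (red). A level of 0 has no point.

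Cells within the IgG library offer a contrast that the choice did not use, between those with and those without a UMI of Gli1, Ptch1 or Hhip. Entpd1 was higher in cells with such a UMI in myofibroblast-like cluster 12, at 77.9 CPM against 61.5 CPM without, and in cluster 21, at 89.7 CPM against 70.7 CPM. Htra1 was lower with a target UMI in cluster 21, at 788 CPM against 1021.5 CPM, and higher in matrix fibroblast-like cluster 19, at 41.7 CPM against 19.6 CPM, a ratio of 2.13 (1.58 to 2.91). With cells thinned to 1000 UMIs the ratio of Htra1 was 0.741 (0.632 to 0.870) in cluster 21 and 1.29 (0.691 to 2.52) in cluster 19, so the second no longer stood apart from 1. In adventitial fibroblast-like cluster 18 St8sia2 had 113 CPM with and 70.2 CPM without, a ratio of 1.60 (1.31 to 1.97), and 1.46 (0.901 to 2.39) after thinning. In that cluster Entpd1, at a ratio of 2.59, and Htra1, at 1.56, were also higher with a target UMI, and after thinning Htra1 had 1.85 (1.26 to 2.77). In matrix fibroblast-like clusters the intervals of Cerk and St8sia2, the genes with the lowest ratios between the libraries there, included 1 without thinning. Fam150a was higher with a target UMI in cluster 12, at 25.6 CPM against 15.7 CPM, and lower in cluster 21, at 33.1 CPM against 49.1 CPM. Over clusters 12, 21, 23, 14, 19 and 20 together 5 of 33 gene and cluster pairs were higher and 5 lower in cells with a target UMI, counted by intervals that leave out 1, and over the other clusters, with cluster 18 among them, 5 of 23 were higher and 3 lower. Cells with a target UMI were deeper in most clusters, such as medians of 9982 and 8037 UMIs with and without in cluster 12. Cells were sorted by their target UMIs before thinning, so thinning evened the depth of the compared counts and not that of the sorting. After thinning, 1 of 23 pairs in the 6 clusters was higher, Mdfi in cluster 23, and 2 were lower, Htra1 in cluster 21 and St8sia2 in cluster 14, at 0.452 (0.208 to 0.961). Both Entpd1 intervals, in clusters 12 and 21, then included 1. By a UMI of the tdTomato reporter, St8sia2 in cluster 18 of the IgG library stood at 102 CPM with and 36.3 CPM without, a ratio of 2.81 (1.76 to 4.78). In the 5E1 library that ratio was 1.43 (0.864 to 2.51). Most reporter intervals of the IgG library included 1: 18 of 20 pairs in myofibroblast-like, 12 of 13 in matrix fibroblast-like and 21 of 23 in the other clusters. The reporter split was not thinned. No share over all genes was computed for the target split, before or after thinning, or for the reporter split. How often the interval of any gene leaves out 1 is therefore unknown, and nothing is read from the counts of pairs.

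**Figure D4:**
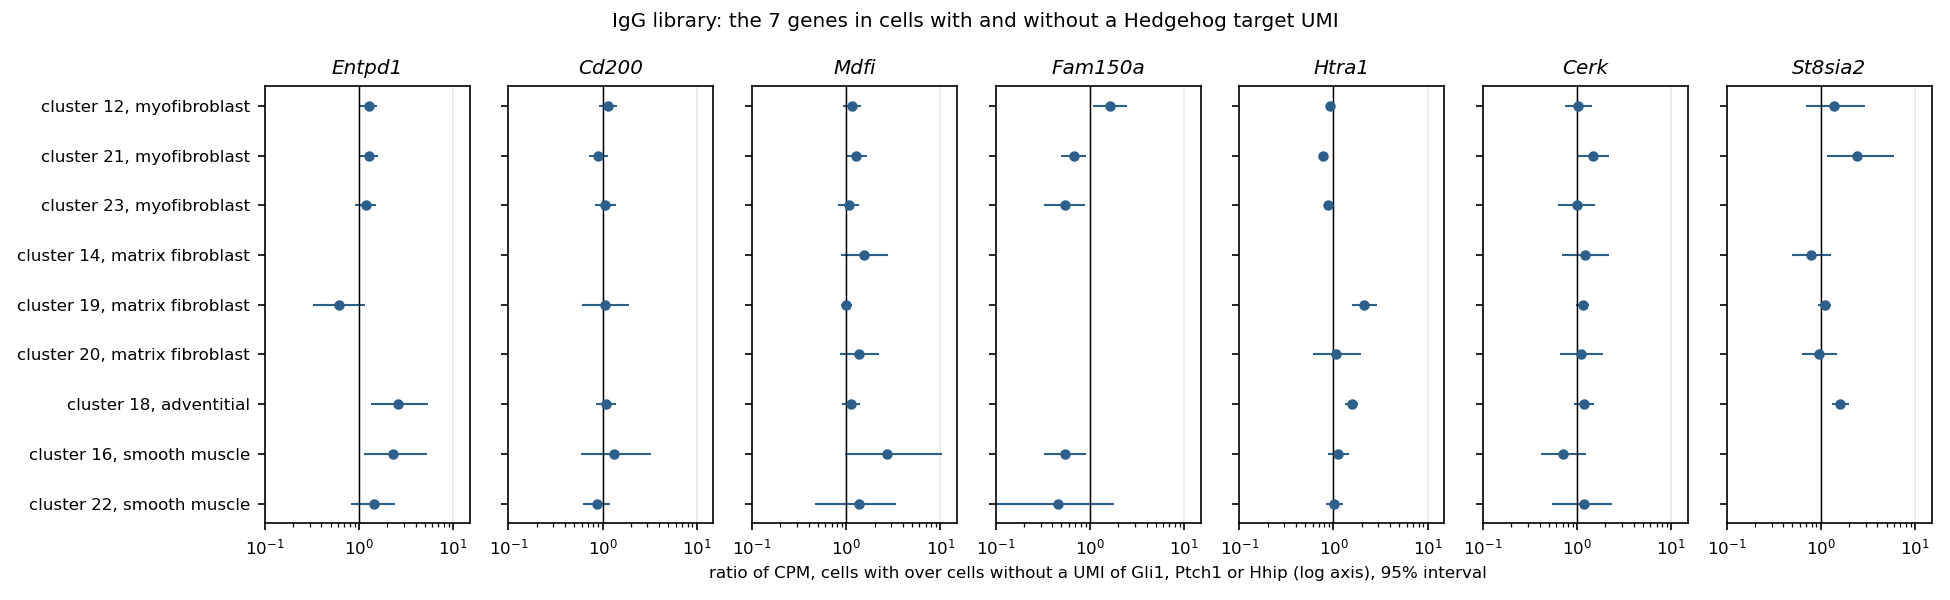
Ratio of CPM (log axis, exact 95% intervals) between IgG cells with and without a UMI of Gli1, Ptch1 or Hhip, for each of the 7 genes in 9 mesenchymal clusters, with a line at a ratio of 1 and no point under 20 UMIs. Most intervals cross the line, and Htra1 lies left of it in clusters 12, 21 and 23 and right of it in clusters 19 and 18.

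Genes that work with these 7 were taken from 7 lists of partners. In alveolar myofibroblast-like cells 5 of 71 measured list genes were at least 2-fold lower, against 3.66% of all genes, and 1 was at least 2-fold higher, against 2.08%. S1pr1, a receptor for sphingosine 1-phosphate, was 3.16-fold lower (2.45 to 4.13), with 10.2 CPM in 5E1 and 32.3 CPM in IgG. Bmp4, a growth factor on the HtrA list, stood at 84.8 CPM in 5E1 and 187 CPM in IgG. The other genes that were lower, Twist1, P2ry6 and Enpp3, and Adora1, which was higher, were all under 8 CPM. In matrix fibroblast-like cells 2 of 65 were lower, against 4.53%, and 5 were higher, against 2.72%. Ncam1, whose protein carries the polysialic acid that St8sia2 adds, was 3.60-fold lower (2.41 to 5.59), with 5.63 CPM in 5E1 and 20.3 CPM in IgG. Slc29a1, a nucleoside transporter, was 2.41-fold lower (2.02 to 2.89). Ptn, a growth factor on the ALK list, was higher, at 88.4 CPM in 5E1 and 30.5 CPM in IgG, a ratio of 2.90 (2.50 to 3.35). The 4 others that were higher, Gdf5, Msc, Acer2 and P2ry1, were under 10 CPM in both libraries. The remaining polysialic acid synthase St8sia4 had 11.7 CPM in 5E1 and 12.7 CPM in IgG in these cells, a ratio of 0.920 (0.662 to 1.26). The medians of the lists lay between -0.56, for the HtrA proteases and their substrates, and 0.03, for nucleotide breakdown and adenosine, in alveolar myofibroblast-like cells, where all genes had -0.08. In matrix fibroblast-like cells the HtrA list had a median of 0.27, and the medians lay between -0.27, for polysialylation, and 0.60, for the ALK and LTK axis with 2 measured genes, where all genes had -0.04.

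Over the 23 clusters of the IgG library, the distribution of each gene was compared with that of 11670 others by the correlation of log2 levels, with 1 CPM added. All clusters come from 1 library and share its depth and free RNA, so the values are descriptions. Entpd1 was most like Tgfbi (r = 0.791), a marker of myofibroblasts. Htra1 was most like P4ha3 (r = 0.934), a subunit of collagen prolyl hydroxylase, and Fam150a like the smooth muscle genes Myh11 (r = 0.885), Des (r = 0.872) and Actg2 (r = 0.872). Mdfi was most like Nfib (r = 0.913), a transcription factor of lung mesenchyme and epithelium, St8sia2 like Rev3l (r = 0.928) and Fmo2 (r = 0.922), Cd200 like Pcsk6 (r = 0.820) and Cerk like Pip4k2b (r = 0.857). Among the 7 themselves the closest pairs were Mdfi with St8sia2 (r = 0.74) and Fam150a with Htra1 (r = 0.70), and Entpd1 and St8sia2 ran apart (r = -0.33), so the 7 genes do not share 1 pattern over lung cells.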

How the data were processed

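Whole-number counts of UMIs per gene and cell were deposited by the authors, made with Cell Ranger 3.1.1 and mm10 per the submitters' processing notes. No source used here states how cells were called or whether strand was used. The authors' table of kept cells gives library and cluster; its header is shifted, so these columns were identified from their values. The barcodes it leaves out were not analysed. The members and lists were chosen with earlier results of these data known.

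UMIs were summed per library and cluster or class and scaled to the class total (CPM). Sums have exact Poisson, ratios exact conditional binomial and shares exact Clopper-Pearson intervals at 95%. With 1 library per condition no test was made. Log2 ratios had 0.5 UMI added to each sum; genes needed 20 UMIs in both libraries together. Clusters were named from marker lists among the 10 leading genes; doublets were not called, and the 5% of cells with most UMIs were left out as an alternative. Named genes are the 7, their partner lists and up to 3 genes of like distribution each. Python 3.11.15, numpy 2.4.6, scipy 1.17.1 and pandas 2.3.3 were used. Scripts were tested on simulated counts. Alternatives covered scaling, sex, cluster weights, thinning, deep cells, shared barcodes, background and UMI minimum.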

Additional observations from a re-analysis of the deposited data

Results flagged for a closer look

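Some genes of the 7 were higher in the 5E1 library in a class while they were lower in a fibroblast class. The ratio of 5E1 over IgG was 1.77 for Entpd1 in neutrophil-like cells. For Cd200 it was 2.03 in alveolar macrophage-like cells, 1.47 in mesothelial-like cells, 1.39 in AT2-like cells, 1.18 in cluster 10 and 1.10 in endothelial-like cells. For Cerk it was 1.52 in interstitial macrophage-like cells. Each of these intervals lies above 1, they cover counting error only, and the difference between classes was not tested.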

How the results depend on the processing

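The count of genes at least 2-fold lower was 5 to 7 of 7 in alveolar myofibroblast-like cells, 3 to 4 of 6 in matrix fibroblast-like cells and 5 to 9 of 46 gene and class pairs elsewhere under each alternative that gave a count. Subtracting the B cell-like level gave none, since some levels came to 0 or less. That level is not a background for each gene, since B cell-like cells had 53.2 CPM of Cerk and 27.8 CPM of Cd200 in 5E1. In IgG they had 38.6 CPM and 39.4 CPM. The subtraction turned the log2 ratio of St8sia2 in alveolar myofibroblast-like cells to 1.75, against -1.23. Htra1 in endothelial-like cells had a log2 ratio of 0.07 with Xist cells of 5E1 only and 0.01 after thinning, against -0.18. The cause was not tested. With at least 100 UMIs, 3 partner list genes were lower in alveolar myofibroblast-like cells, because fewer genes were measured, and the percent of all genes lower was 1.84 there and 2.83 in matrix fibroblast-like cells. After thinning, 1 pair was higher in cells with a Hedgehog target UMI, against 5 before. Fewer UMIs were then counted, and cells were still sorted at full depth. No share over all genes was computed for either count. Leaving out clusters 12 or 14, or taking smooth muscle clusters singly, was chosen after seeing the data. Median-ratio scaling moved log2 ratios by -0.07 to 0.03. No paired analysis was possible because each condition has 1 library.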
